A study of Mus musculus with 6 samples.

Results

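The 37 genes described here encode proteins of macroautophagy, of mitophagy (the autophagy of mitochondria) and of the lysosome, and they were compared between muscles with and without the chromatin remodeling subunit Baf155. They were chosen by name for their roles, without a rule on their levels, from the 20632 genes of the table. Earlier results of these data were known at the time. They comprise 4 genes of the initiation kinase complex, 4 of the phosphoinositide kinase complex, 4 that supply or mark the growing membrane, 6 of the conjugation machinery and 5 of the LC3 and GABARAP family. The others are the cargo receptor gene Sqstm1, 5 mitophagy genes, 2 genes of transcription factors, 2 of lysosomal membrane proteins and 4 of lysosomal hydrolases. All 37 passed the filter on low counts, with 68 to 10968 counts per gene and mouse, and were tested among 12116 genes. The study asked how loss of Baf155 in myofibers affects skeletal muscle. RNA was sequenced from the pooled muscles of the hind limb of each mouse (tibialis anterior, extensor digitorum longus, gastrocnemius, soleus and quadriceps), with 1 library per mouse and 3 mice per genotype. All 6 mice were males aged 3 months that had not been exercised, of a background labelled C57BL/6 and given as C57BL/6J in the methods of the study. The Baf155 ΔMF mice, labelled Baf155 -/-, carried floxed Baf155 alleles and Cre under the MCK promoter, which is active in skeletal myofibers and also in heart. The controls, here Baf155 WT, carried the floxed alleles without Cre, so the floxed alleles were shared by both genotypes and the Cre transgene was not. Cells of the muscle other than myofibers keep Baf155 under this promoter.

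Autophagy begins when a kinase complex around ULK1 or ULK2 is activated on fasting and other stress, and a lipid kinase complex around Beclin 1 then marks the site where a double membrane grows. A conjugation machinery attaches LC3 and GABARAP proteins to that membrane, where they bind cargo receptors such as p62 and the mitophagy receptors. The closed vesicle fuses with lysosomes, whose hydrolases break the cargo down, and in muscle the pathway is known for its part in the response to fasting, in the quality control of mitochondria and in glycogen storage disease. Transcript levels say nothing of autophagic flux, which is controlled largely through proteins.

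The libraries held 10601293 to 12469335 counts in Baf155 WT mice and 8426022 to 10003421 counts in Baf155 ΔMF mice. At these depths 3 counts, taken as the smallest level that can be shown, correspond to 0.230 to 0.351 CPM (counts scaled for library size by the TMM method), a limit that covers counting error only. Counts of Smarcc1, the gene of Baf155, were 241, 255 and 190 in controls against 66, 63 and 66 in mutants, so every mouse matched its labelled genotype. Each sample title opens with a prefix (MS13, MS14 or MS15) whose meaning is not stated. Throughout, the Baf155 WT mice are given in the order MS13, MS15, MS15 and the Baf155 ΔMF mice in the order MS13, MS13, MS14. MS14 and MS15 each held a single genotype, so that prefix and genotype cannot be told apart there. The 8 skeletal muscle markers summed to 127543 to 130710 CPM in Baf155 WT and 120978 to 126444 CPM in Baf155 ΔMF muscle, lower without overlap. In whole muscle, fewer cells of a type and less RNA per cell cannot be told apart.

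Per kilobase of transcript, the most abundant of these RNAs in Baf155 WT muscle were those of Ctsd, Pink1, Sqstm1, Lamp1 and Bnip3. Ctsd, the gene of the aspartic protease cathepsin D, was at 383 ± 27.0 CPM per kb in Baf155 WT muscle (SD, n = 3 mice) and at 363 ± 28.0 CPM per kb in Baf155 ΔMF muscle. Pink1, the gene of the kinase that marks damaged mitochondria, followed at 288 ± 5.54 CPM per kb in Baf155 WT muscle, and Sqstm1, the gene of the cargo receptor p62, at 278 ± 21.4 CPM per kb, so these neighbours did not differ beyond their spread. Lamp1, which encodes a major glycoprotein of the lysosomal membrane, was at 220 ± 2.19 CPM per kb and Bnip3, which encodes a mitophagy receptor of the outer mitochondrial membrane, at 170 ± 6.42 CPM per kb, each apart from the next gene by more than its spread. Among the LC3 and GABARAP genes the levels per kb in Baf155 WT muscle ran from 116 ± 7.63 for Map1lc3a to 32.1 ± 2.23 for Gabarapl1. At the other end of the scale, Tfe3, a transcription factor gene of the same family as Tfeb, was at 2.63 ± 0.497 CPM per kb and Atg14, whose product directs the lipid kinase complex to autophagy, at 2.35 ± 0.310 CPM per kb, and these lowest values did not differ beyond their spread. Lengths are those of 1 principal transcript per gene, and the order of the genes was similar on the length of all exons (Spearman's rho 0.947 over 37 genes, which share the same libraries).

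**Figure D1:**
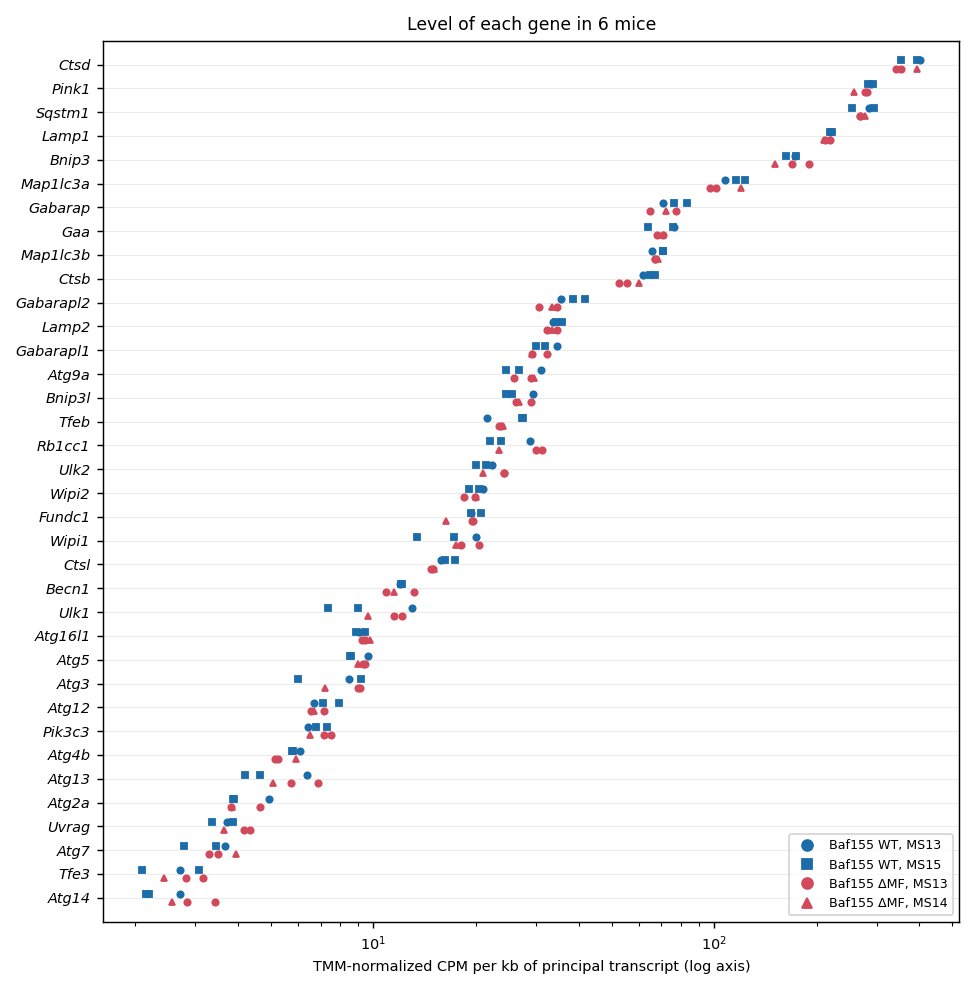
Level of 36 of the 37 genes, in order of their Baf155 WT mean, in CPM per kb of transcript on a logarithmic axis, with a point for each of the 6 mice (color for genotype, shape for title prefix). Ctsd stands highest at 383 CPM per kb in Baf155 WT muscle and Atg14 lowest at 2.35 CPM per kb, and the points of the genotypes lie close together beside this range.

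None of the 37 genes passed the comparison of genotypes at an adjusted p under 0.05. With edgeR's quasi-likelihood test and Benjamini-Hochberg adjustment the count was 0 of 37, where 0.0248% of all genes passed (3 of 12116), and with DESeq2 and limma-voom it was also 0 of 37, where 0.19% and 0.0413% of all genes passed. At an unadjusted p under 0.05 edgeR gave 2 of 37 genes, Gabarapl2 and Ctsb, both lower in Baf155 ΔMF muscle. That is 5.41% of the genes, where 7.95% of all genes passed this limit (3.35% higher and 4.6% lower). DESeq2 gave 1 of the 37 at this limit, Ctsb (4.99% of all genes), and limma-voom 2, Gabarapl2 and Ctsb (7.76% of all genes). Without the MS13 control, where 1 of the 37 passed after adjustment, the counts before adjustment were 5 higher (Ulk1, Rb1cc1, Atg13, Atg14 and Wipi1) and 3 lower (Gabarapl2, Ctsb and Tfeb), where 12% and 11.8% of all genes passed. With the title prefix as a covariate 0 of the 37 passed before or after adjustment, where 5.08% and 0.132% of all genes did.

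Because a missed threshold does not show equal levels, the intervals of the differences matter more here. The 95% interval of the fold change lay within a 1.5-fold change in either direction for 35 of the 37 genes, where 69.3% of all genes had so narrow an interval. The exceptions were Atg13 and Atg14, whose upper bounds were 50.1% and 59.5% above Baf155 WT. All 37 intervals lay within a 2-fold change (90.9% of all genes). The genes were deeply counted, with a median of 58.4 CPM in Baf155 WT muscle against 16.9 CPM over all genes tested, and the median standard error of their log2 fold changes was 0.10 against 0.13. The median log2 fold change was -0.03 over the 37 genes and -0.00095 over all genes, and 17 of the 37 lay above 0 (49.8% of all genes). The median size of the log2 fold change, without its sign, was 0.09 for these genes and 0.12 for all genes. The mean log2 CPM of the 37 genes was 6.12, 6.07 and 6.03 in the Baf155 WT mice and 6.10, 6.09 and 6.04 in the Baf155 ΔMF mice, which overlap fully.

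**Figure D2:**
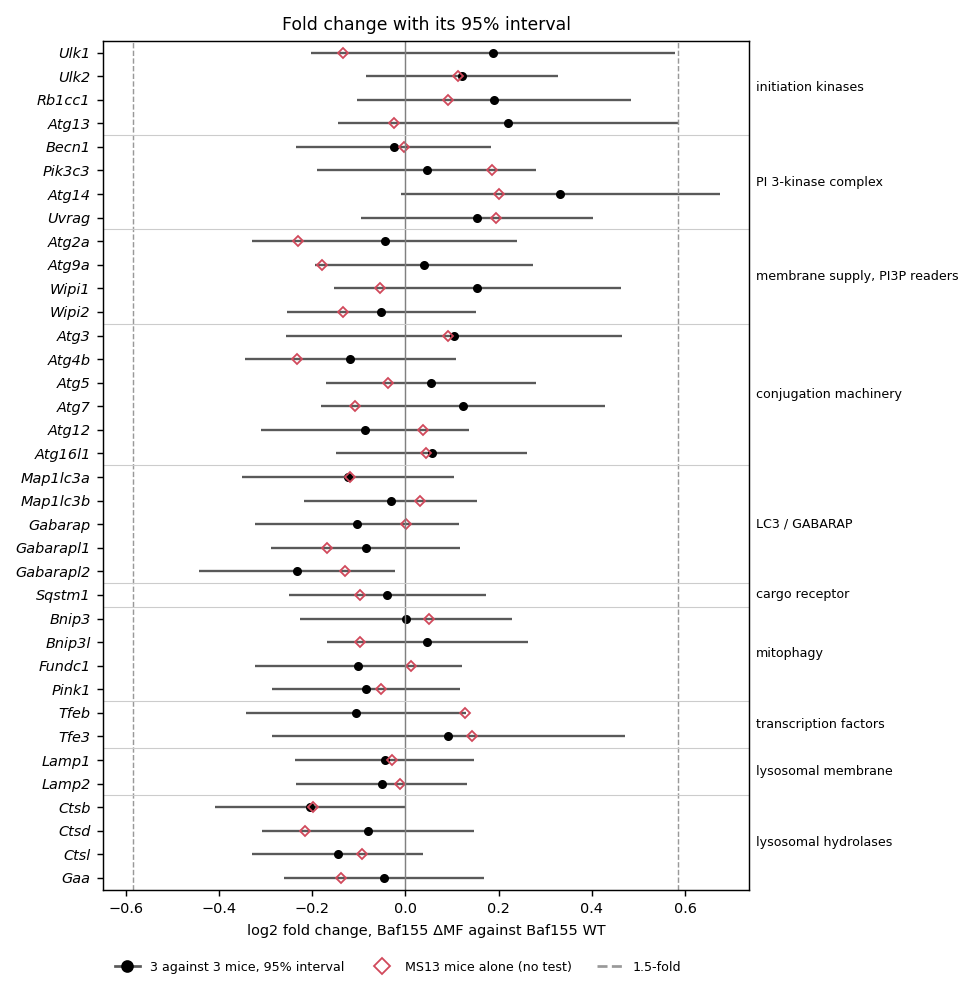
Log2 fold change of 36 of the 37 genes, Baf155 ΔMF against Baf155 WT (black points, n = 3 mice per genotype), with its 95% interval from the edgeR fit (bars), the value between the MS13 mice alone (open diamonds) and a 1.5-fold change (dashed lines), grouped by role. The intervals of Gabarapl2 and Ctsb exclude 0 on the lower side before adjustment, and the largest value is that of Atg14 at 0.33.

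Differences between title prefixes within Baf155 WT were as wide as those between genotypes, though they rest on 1 mouse against 2. The Baf155 WT mouse of MS13 and the mean of the Baf155 WT mice of MS15 lay further apart in log2 CPM than the genotypes did for 24 of the 37 genes (64.9%), where this held for 68.5% of all genes. The median size of that difference within Baf155 WT was 0.13 over the 37 genes and 0.19 over all genes. For this reason the values between the MS13 mice alone (1 Baf155 WT against 2 Baf155 ΔMF), which carry no test, are given beside the main results.

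The genes of the initiation kinase complex had the largest positive median of the roles with more than 1 gene, a log2 fold change of 0.19 over 4 genes, and all 4 were above 0 without passing the test. Ulk1 (chromosome 5, 110784488 to 110810097 on GRCm38), the gene of the kinase that starts autophagy, was at 67.6, 46.9 and 38.4 CPM in the Baf155 WT mice and at 63.3, 60.0 and 50.3 CPM in the Baf155 ΔMF mice. The MS13 mouse of the controls was the highest of all 6 and the other controls were the lowest, so the genotypes overlapped. Its log2 fold change was 0.19 (standard error 0.18, edgeR adjusted p = 0.763), and between the MS13 mice alone it was -0.13. Without the MS13 control, Ulk1 was the only 1 of the 37 genes to pass, with a log2 fold change of 0.44 (adjusted p = 0.0350 from edgeR), where 7.77% of all genes passed in that fit. Rb1cc1, which encodes the scaffold FIP200 of the complex, was at 219, 180 and 167 CPM in Baf155 WT and at 228, 238 and 178 CPM in Baf155 ΔMF mice, with the MS13 control again the highest of the controls. Its log2 fold change was 0.19 (standard error 0.13, edgeR adjusted p = 0.691) and 0.09 between the MS13 mice. Atg13, another regulatory subunit, had 22.6, 16.5 and 14.9 CPM against 24.3, 20.4 and 18.0 CPM. Its log2 fold change of 0.22 (standard error 0.17, edgeR adjusted p = 0.705) was -0.02 between the MS13 mice. Ulk2, which encodes the related kinase, had a log2 fold change of 0.12, and 0.11 between the MS13 mice.

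The lipid kinase complex showed no common direction, with 3 of 4 genes above 0 and a median log2 fold change of 0.10. Atg14 (chromosome 14, 47540893 to 47570649 on GRCm38) had the largest log2 fold change of the 37 genes in size. It was at 10.1, 8.19 and 8.03 CPM in the Baf155 WT mice and at 12.8, 10.6 and 9.59 CPM in the Baf155 ΔMF mice. The MS14 mouse of the Baf155 ΔMF genotype lay below the MS13 control, so the genotypes overlapped by 1 mouse. Its log2 fold change was 0.33 (standard error 0.16, edgeR adjusted p = 0.622), a fitted change of 25.9% with an interval from -0.657% to 59.5%, and between the MS13 mice it was 0.20. Uvrag, which encodes the partner of Beclin 1 in later steps of the pathway, had a log2 fold change of 0.15 (edgeR adjusted p = 0.699) and of 0.20 between the MS13 mice. Becn1, the gene of Beclin 1, was at 52.4, 52.5 and 53.0 CPM in the Baf155 WT mice and 47.5, 57.4 and 50.2 CPM in the Baf155 ΔMF mice. The controls lay within the range of the Baf155 ΔMF mice, and the interval of the difference ran from -15.0% to 13.6%. GENCODE places 43.9% of the exon bases of Becn1 over those of Cntd1 on the other strand, and its counts were not whole numbers in all 6 mice. The methods of the study name a stranded library kit, but whether strand was used in counting is not given in the sources used here. Pik3c3, which encodes the catalytic subunit Vps34, had a log2 fold change of 0.05 with an interval from -12.3% to 21.4%.

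Genes that supply or mark the growing membrane had log2 fold changes from -0.05 to 0.15 with a median of -0.0025. Wipi1, whose product reads the lipid made by Vps34, was at 41.0, 27.5 and 35.2 CPM in the Baf155 WT mice and at 37.2, 41.9 and 35.9 CPM in the Baf155 ΔMF mice, with overlap and an interval from -10.1% to 37.7%. Wipi2, a related lipid reader that recruits the conjugation machinery, had a log2 fold change of -0.05 with an interval from -0.26 to 0.15. Atg9a, the gene of a lipid scramblase on vesicles that seed the membrane, had one of 0.04 with an interval from -0.19 to 0.27, and Atg2a, the gene of a lipid transfer protein, had one of -0.04 with an interval from -0.33 to 0.24. Between the MS13 mice alone these last genes were at log2 differences of -0.18 and -0.23.

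The 6 genes of the conjugation machinery had log2 fold changes from -0.12 to 0.12. At the upper end was Atg7, the gene of the activating enzyme that both conjugation reactions share, with 13.8, 10.5 and 12.9 CPM against 12.4, 13.2 and 14.9 CPM. At the lower end was Atg4b, the gene of the protease that primes LC3, with 25.5, 24.0 and 24.3 CPM against 21.9, 21.4 and 24.7 CPM. In each case at least 1 Baf155 ΔMF mouse lay among the controls. Atg3 (the enzyme that transfers LC3 to the lipid) had the widest interval of this role, from -16.3% to 38.0%. Atg16l1, which encodes the subunit that directs conjugation to the membrane, had one from -9.80% to 19.9%. For Atg5, the conjugation partner of Atg12, the interval was from -11.2% to 21.5%, and for Atg12 itself from -19.3% to 9.90%.

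All 5 genes of the LC3 and GABARAP family had log2 fold changes below 0, with a median of -0.10. With edgeR Gabarapl2 alone of the family passed before adjustment, and with DESeq2 it did not. Gabarapl2 (chromosome 8, 111940703 to 111953612 on GRCm38), which encodes the family member also called GATE-16, was at 59.7, 64.4 and 70.1 CPM in the Baf155 WT mice. In the Baf155 ΔMF mice it was at 51.3, 57.9 and 56.1 CPM. Every Baf155 ΔMF mouse lay below every control, with 57.9 CPM in an MS13 mouse next to 59.7 CPM in the MS13 control. The log2 fold change was -0.23 (standard error 0.10, edgeR adjusted p = 0.601), a fitted change of -14.9% with an interval from -26.4% to -1.54%. Between the MS13 mice alone it was -0.13, and within Baf155 WT the MS13 mouse was lower than the MS15 mice by a log2 difference of -0.17. Genotypes without overlap were found for 4 of the 37 genes, all lower in Baf155 ΔMF muscle, where 5.57% of all genes did not overlap and were lower (10.8% in either direction). Besides Gabarapl2 they were Pink1, Ctsb and Ctsl.

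The other family members overlapped between genotypes. Map1lc3a was at 120, 137 and 129 CPM against 108, 113 and 134 CPM, or -0.12 on the log2 scale (edgeR adjusted p = 0.728) with an interval from -21.6% to 7.49%. Map1lc3b, whose product is the LC3 form used as the marker of autophagosomes, was at 166, 179 and 179 CPM against 170, 170 and 174 CPM, with an interval from -14.0% to 11.3%. The MS13 control was the lowest of all 6 mice for Map1lc3b and the MS15 controls were the highest. Gabarap and Gabarapl1, the remaining members of the family, had intervals from -20.0% to 8.35% and from -18.1% to 8.52%. Within the family the ratio of Map1lc3a to Map1lc3b per kb was 0.745 ± 0.0497 on the log2 scale in Baf155 WT and 0.649 ± 0.142 in Baf155 ΔMF muscle (SD, n = 3 mice, two-sided exact permutation p = 0.4, adjusted p = 0.98). This was 1 of 7 ratios of related genes that were compared, and none of them separated the genotypes (exact p from 0.4 to 1, where 3 mice against 3 cannot give less than 0.1). The others were Gabarapl1 to Gabarap, Ulk1 to Ulk2, Bnip3 to Bnip3l, Tfeb to Tfe3, Lamp2 to Lamp1 and Ctsl to Ctsd, with differences from -0.20 (Tfeb to Tfe3) to 0.10 (Ulk1 to Ulk2) on the log2 scale.

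**Figure D3:**
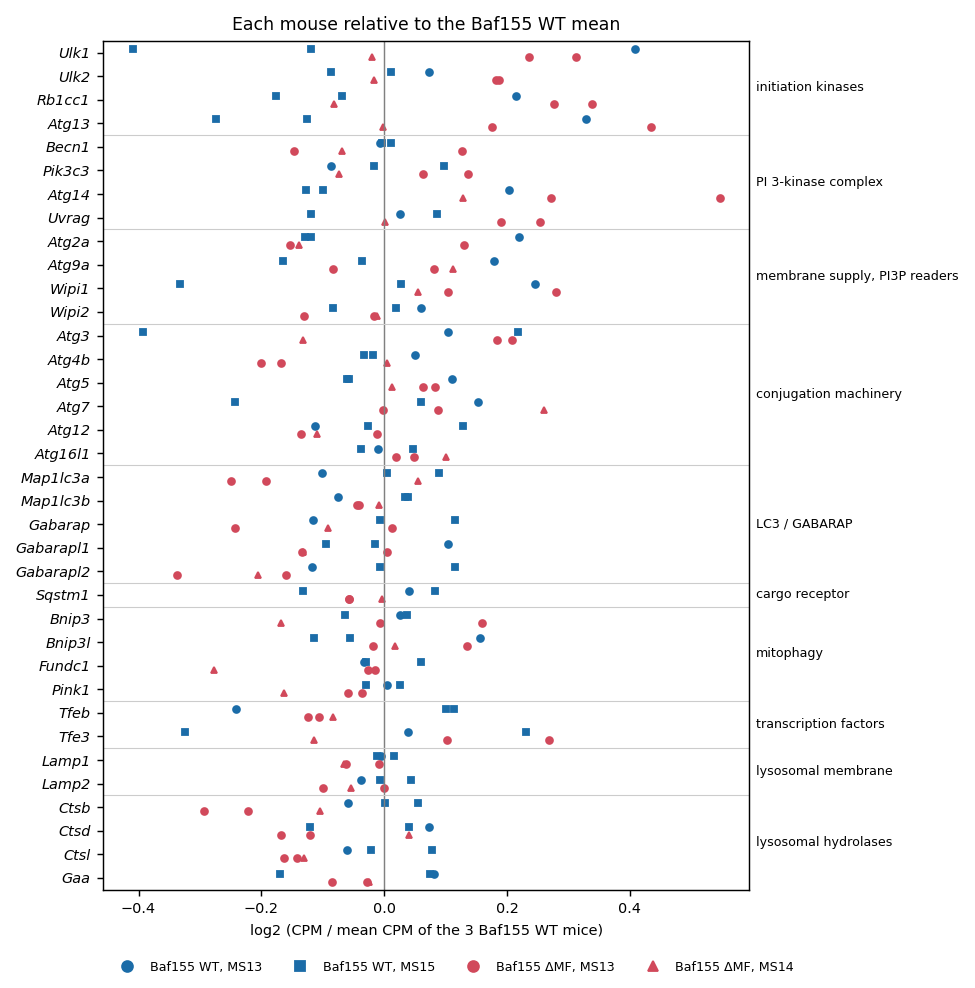
Level of 36 of the 37 genes (lines, grouped by role) in each of the 6 mice (points, colored by genotype and shaped by title prefix) as the log2 ratio of its CPM to the mean CPM of the 3 Baf155 WT mice. The MS13 control stands above the MS15 controls for genes such as Ulk1, Atg13 and Wipi1 and below them for Tfeb.

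Sqstm1 and the mitophagy genes had log2 fold changes from -0.10 to 0.05. Sqstm1 was at 582, 600 and 517 CPM in Baf155 WT and 544, 544 and 564 CPM in Baf155 ΔMF mice, so that the latter lay inside the range of the controls and the interval ran from -15.9% to 12.6%. Bnip3 (chromosome 7, 138890836 to 138909519 on GRCm38), a gene also known as a target of HIF-1α, was at 304, 306 and 285 CPM in the Baf155 WT mice and 297, 333 and 266 CPM in the Baf155 ΔMF mice. The Baf155 ΔMF mice held both the highest and the lowest value, and the log2 fold change was 0.0010 (standard error 0.10, edgeR adjusted p = 0.998, interval from -14.5% to 17.1%). Bnip3l, which encodes the related receptor NIX, had a log2 fold change of 0.05 with an interval from -0.17 to 0.26. Pink1 (chromosome 4, 138313409 to 138326307 on GRCm38) was at 687, 697 and 671 CPM in Baf155 WT and at 668, 658 and 612 CPM in Baf155 ΔMF mice. The genotypes did not overlap, but the closest mice of each differed by little and the log2 fold change was -0.09 (standard error 0.09, edgeR adjusted p = 0.794, interval from -18.0% to 8.40%). Fundc1, the gene of a receptor that acts under hypoxia, had an interval from -20.1% to 8.81%.

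Of the transcription factor genes, Tfeb (chromosome 17, 47737030 to 47792419 on GRCm38), which encodes a regulator of lysosomal and autophagy genes, was at 49.4, 62.6 and 63.2 CPM in the Baf155 WT mice. In the Baf155 ΔMF mice it was at 54.2, 53.6 and 55.1 CPM. The 3 Baf155 ΔMF mice were close to each other and lay between the MS13 control below and the MS15 controls above, so that the log2 fold change was -0.11 over all mice (standard error 0.11, edgeR adjusted p = 0.780) and 0.13 between the MS13 mice. Tfe3, with 8.84, 10.1 and 6.87 CPM against 10.4, 9.24 and 7.95 CPM, had an interval from -18.0% to 38.5%.

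All 6 lysosomal genes had log2 fold changes below 0, with medians of -0.05 for the 2 membrane genes and -0.11 for the 4 hydrolase genes. Ctsb (chromosome 14, 63122462 to 63145923 on GRCm38), the gene of the cysteine protease cathepsin B, was at 294, 318 and 307 CPM in the Baf155 WT mice and at 263, 250 and 285 CPM in the Baf155 ΔMF mice. Every Baf155 ΔMF mouse lay below every control. The log2 fold change was -0.20 (standard error 0.09, edgeR adjusted p = 0.622), a fitted change of -13.2% with an interval from -24.6% to -0.107%, and it was also -0.20 between the MS13 mice. Ctsl (chromosome 13, 64359337 to 64370890 on GRCm38), the gene of cathepsin L, was at 97.6, 107 and 100 CPM in Baf155 WT and at 92.1, 90.9 and 92.9 CPM in Baf155 ΔMF mice. Here too the genotypes did not overlap, and the log2 fold change was -0.15 (standard error 0.08, edgeR adjusted p = 0.643, interval from -20.4% to 2.66%) and -0.09 between the MS13 mice. The counts of Ctsb and Ctsl, like those of Becn1, were estimates that were not whole numbers in all 6 mice, so reads shared with other genes were divided. In GENCODE 12.8% and 26.8% of the exon bases of Ctsb and Ctsl overlap other genes. This share was also large for Ctsd (34.4%), Atg9a (32.6%) and Gabarapl1 (28.3%), whose counts were whole numbers in every mouse. Ctsd was at 858, 839 and 750 CPM against 750, 726 and 839 CPM, with overlap and an interval from -19.2% to 10.8%. Gaa, the gene of the acid α-glucosidase that is lost in Pompe disease, had an interval from -16.5% to 12.4%. Lamp1 was at 489, 486 and 496 CPM against 470, 488 and 468 CPM (interval from -15.1% to 10.7%), with 1 Baf155 ΔMF mouse among the controls. Lamp2, which encodes the membrane protein that is lost in Danon disease, had an interval from -15.0% to 9.57%.

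The promoters were searched because TFEB and TFE3 bind the E-box CACGTG, which lysosomal genes often carry, and hypoxia-inducible factors bind a related core. The 250 bases before the start of the gene were taken from RefSeq on GRCm38.p6 for 28 of the 37 genes and for 27025 genes in all, and both strands were read. Where several windows were listed for a gene, as for Tfeb (3) and Tfe3 (2), the window listed first was used. CACGTG was present for 8 of the 28 genes (28.6%), where 6.05% of all genes had it. These were Atg3, Atg5, Atg7, Bnip3, Lamp1, Ctsd, Ctsl and Gaa. A longer palindrome was also searched, with CACGTG at its center and further fixed bases on both sides. It was present for 0 of the 28 genes, where 0.259% of all genes had it. With so low a share among all genes, its absence from 28 genes cannot set them apart from the others. The core ACGTG outside CACGTG was present for 4 of the 28 (14.3%, against 11.4% of all genes). CACGTG itself contains ACGTG, so the 8 genes with CACGTG, Bnip3 among them, hold this core as well. GCGTG, the other core letters of hypoxia-inducible factors, was present for 16 (57.1%, against 28.2%). All genes are here the 27025 with a window, not the 12116 tested, and they were not matched for expression or base composition. A site from each of 5 genes, among them lysosomal, conjugation and mitophagy genes, is shown as 30 bases in the direction of the gene, with the E-box in capitals. Lamp1 held 4 such sites and Ctsd and Atg3 held 2 each, of which 1 is shown. The Lamp1 site shown is at chr8:13159088-13159117 (plus strand), the Ctsd site at chr7:142388048-142388077 (minus), the Gaa site at chr11:119267811-119267840 (plus), the Atg3 site at chr16:45158746-45158775 (plus) and the Bnip3 site at chr7:138909597-138909626 (minus).
Lamp1: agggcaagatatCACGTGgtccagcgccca
Ctsd: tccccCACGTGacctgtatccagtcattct
Gaa: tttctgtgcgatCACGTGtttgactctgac
Atg3: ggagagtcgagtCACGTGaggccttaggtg
Bnip3: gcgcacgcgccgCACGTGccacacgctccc
The 8 genes with CACGTG had a median log2 fold change of -0.02 (from -0.15 to 0.12) and the 20 genes with a window but without CACGTG had one of -0.04 (from -0.23 to 0.33). The presence of the letters is a description of the window and not of binding.

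Further genes of the pathway were read in 7 lists of 145 genes, of which 143 were tested (all but Atg9b and Tfec). At an adjusted p under 0.05, 0 of the 143 passed with edgeR, and at an unadjusted p under 0.05 there were 3 higher and 6 lower, or 6.29%, against 7.95% of all genes. DESeq2 and limma-voom also gave 0 after adjustment, and before it 1 higher and 4 lower and 3 higher and 6 lower. Without the MS13 control 8 of the 143 passed after adjustment, where 7.77% of all genes did. Among 19 other core genes of autophagy 2 were higher at an unadjusted p under 0.05, where 3.35% of all genes were. Their median log2 fold change was 0.04. Atg4c, a relative of Atg4b, was at 7.09, 6.27 and 7.23 CPM in Baf155 WT and at 8.65, 9.14 and 8.54 CPM in Baf155 ΔMF mice, with no overlap (log2 fold change 0.36, edgeR adjusted p = 0.601, 0.32 between the MS13 mice). Ambra1, whose product activates the Beclin 1 complex, was at 25.9, 25.5 and 26.1 CPM against 34.8, 27.4 and 30.1 CPM, also with no overlap (log2 fold change 0.25, edgeR adjusted p = 0.613, 0.25 between the MS13 mice). Next came Pik3r4, which encodes the regulatory subunit of Vps34, with a log2 fold change of 0.25 over all mice and -0.02 between the MS13 mice. The 17 other receptors of selective autophagy held 0 genes at this limit, with a median of 0.03, and those nearest to it were Fkbp8, Bcl2l13 and Tex264 with log2 fold changes of -0.19, 0.15 and -0.15. The 14 genes of fusion with the lysosome also held 0 (median 0.04), with Epg5, Plekhm1 and Vps18 at 0.17, 0.14 and 0.10. So did the 20 genes of nutrient signaling to the lysosome (median 0.05), with Tsc1 and Mtor, which encode a brake and the kinase of the mTOR pathway, at 0.15 and 0.17 and Lamtor5 at -0.16.

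The lists of lysosomal genes had medians below 0. Of 38 other hydrolases and their cofactors, 30 had log2 fold changes below 0, with a median of -0.09, where 49.8% of all genes lay above 0. Of the 38, 5 had an unadjusted p under 0.05, all lower, where 4.6% of all genes were lower at this limit. Ctsz, the gene of cathepsin Z, was at 27.3, 36.8 and 31.0 CPM in Baf155 WT and at 23.2, 23.3 and 26.2 CPM in Baf155 ΔMF mice, with no overlap (log2 fold change -0.39, edgeR adjusted p = 0.601). Ctss, the gene of cathepsin S, was at 6.02, 19.8 and 13.9 CPM against 4.59, 5.50 and 9.36 CPM, and its log2 fold change was -1.06 over all mice and -0.25 between the MS13 mice. The others were Man2b1, Npc2 and Hexa, with log2 fold changes of -0.38, -0.36 and -0.24. Without the MS13 control 6 of the 38 passed at an adjusted p under 0.05, where 7.77% of all genes did, and with the title prefix as a covariate 0 did. Of 18 other membrane genes, with a median of -0.08, only Npc1 had an unadjusted p under 0.05, where 7.95% of all genes did. Npc1 is the gene of the lysosomal cholesterol exporter. It was at 96.6, 87.1 and 64.4 CPM in Baf155 WT and at 118, 111 and 98.3 CPM in Baf155 ΔMF mice, so that it was higher without overlap (log2 fold change 0.40, edgeR adjusted p = 0.601, 0.24 between the MS13 mice), while Tmem192 and Clcn7, next in order of p, had log2 fold changes of -0.20 and -0.14. Of the 17 subunits of the vacuolar ATPase, the proton pump of the lysosome, only Atp6v1f had an unadjusted p under that limit. It was lower, where 4.6% of all genes were, at 40.4, 43.9 and 44.7 CPM against 30.1, 36.2 and 38.7 CPM (log2 fold change -0.30, edgeR adjusted p = 0.601). The median of the subunits was -0.04, and Atp6v0e2 and Atp6v0b stood at -0.21 each.

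**Figure D4:**
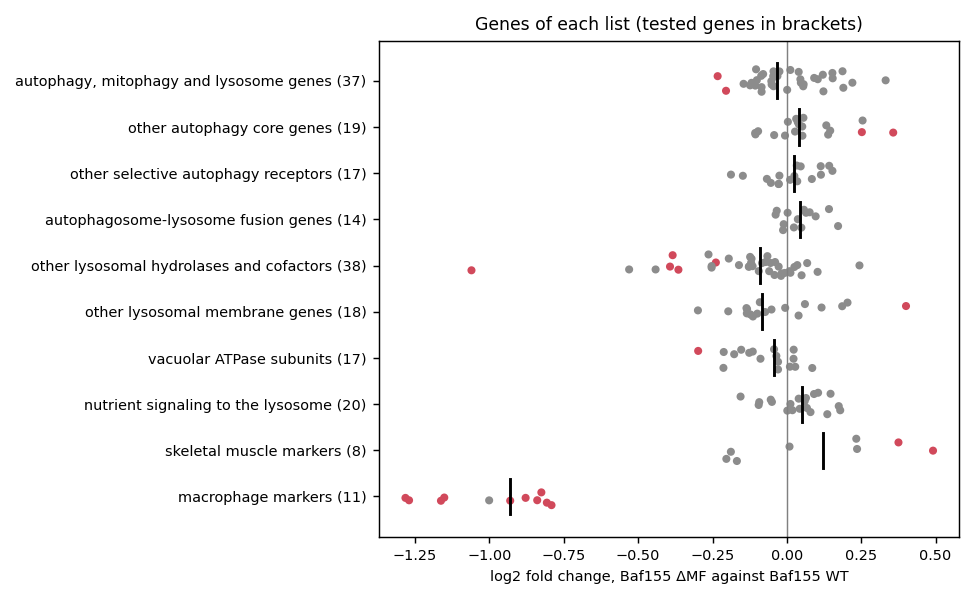
Log2 fold change, Baf155 ΔMF against Baf155 WT, of each tested gene of the 37, of the 7 other pathway lists and of the macrophage and skeletal muscle markers (points, red where the unadjusted edgeR p is under 0.05, grey otherwise), with the median of each list as a black bar. The hydrolase list has a median of -0.09 and the macrophage marker list one of -0.93.

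Lysosomal genes are also strongly expressed by macrophages, and markers of these cells were highest in the MS15 controls. Of 12 macrophage markers 11 were tested. At an unadjusted p under 0.05, 10 were lower, where 4.6% of all genes were, and 0 passed at an adjusted p under 0.05 with edgeR, DESeq2 or limma-voom. DESeq2 gave 5 lower and limma-voom 6 before adjustment. Without the MS13 control 12 of 12 passed after adjustment, where 7.77% of all genes did. Before adjustment 3 were lower with the robust fit and 1 with the title prefix as a covariate. Their sum was 126, 365 and 301 CPM in the Baf155 WT mice and 118, 113 and 189 CPM in the Baf155 ΔMF mice, so that the MS13 control lay among the Baf155 ΔMF mice and the MS15 controls above all others. Cd68, a defining marker, was at 1.85, 7.73 and 6.87 CPM against 1.71, 1.45 and 3.86 CPM, and no tested marker was at 0 in any mouse. The median log2 fold change of the tested markers was -0.93 over all mice and -0.10 between the MS13 mice, where that of the 38 hydrolases was -0.08 and that of the 4 hydrolase genes among the 37 was -0.17. Ctsb, Ctsl and Gabarapl2 had log2 differences of -0.09, -0.09 and -0.17 between the MS13 control and the MS15 controls, in the direction of the markers, while Ctsd and Gaa had differences of 0.11 and 0.13 in the other direction and Pink1 had one of 0.00672. The part of macrophages in the values of the lysosomal genes was not tested. Of the other cell type lists, endothelial markers had 2 of 6 higher at an unadjusted p under 0.05 and skeletal muscle markers 2 of 8 higher (Myh1 and Myh2). Fibroblast markers had 2 of 7 lower, adipocyte markers 1 of 6 lower and red blood cell markers 3 of 5 lower (0 with the robust fit). Over all genes 3.35% were higher and 4.6% lower at this limit. The lists were partly mixed, with log2 fold changes above 0 for 3 of the 7 fibroblast, 1 of the 6 adipocyte and 5 of the 8 skeletal muscle markers. Ckm, Acta1 and Tnnt3 were the 3 skeletal muscle markers below 0. The red blood cell markers had a median log2 fold change of -0.70 over all mice and -0.85 between the MS13 mice alone. Between those mice the median was -0.14 for fibroblast and -0.03 for adipocyte markers.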

How the data were processed

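RNA of hind limb muscle from 3 Baf155 WT and 3 Baf155 ΔMF mice was sequenced (1 library each), and each sample was grouped by its labelled genotype. The authors deposited estimated counts per gene (expected counts, without normalization), listed by symbol. The submitters' processing notes name CASAVA 1.8.2, cutadapt 1.10, Bowtie2 2.2.7, TopHat2 2.1.1, RSEM 1.2.30 and limma, without their order or settings. The methods of the study name a stranded library kit (TruSeq Stranded Total RNA LT). The use of strand in counting is not given in the sources used here. RSEM divides reads that fit several genes, so overlapping genes are uncertain.

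After rounding, edgeR 4.0.16 (under R 4.3.3) was used with the filterByExpr defaults (minimum count 10, minimum total 15), TMM scaling and the quasi-likelihood F test, with p-values adjusted over 12116 genes by the Benjamini-Hochberg method. Total counts per mouse ran from 8426022 to 12469335. Fold change intervals are 95% intervals from this fit. Since separate mice gave the libraries, p-values measure the spread between mice. CPM in the text is on the linear scale after TMM, and log2 CPM used a prior count of 2. For ratios, the exact permutation test ran two-sided through all 20 ways to assign 6 mice, with adjustment over 7 ratios. Gene positions and lengths were taken from GENCODE M21 on GRCm38, and promoters from RefSeq.

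The 37 genes, the other lists and the tests were chosen with earlier results of these data known, so no count over them is independent evidence. The genes are named by role, and 1 mitophagy gene counted among the 37 is not reported here on its own. From each other pathway list the 3 genes with the smallest p are named, and Npc2, Hexa and Cd68 were named after their values were seen. Alternatives comprised limma-voom (limma 3.58.1), DESeq2 1.42.0, different scalings and filters, a robust fit, the title prefix as a covariate, the MS13 mice alone and leaving out each mouse. Alternatives for the other lists and their named genes were chosen after seeing the data.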

Additional observations from a re-analysis of the deposited data

How the results depend on the processing

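With all 6 mice, the count of 0 of the 37 genes at an adjusted p under 0.05 held under 3 scalings and 2 filters. It also held with a robust fit, DESeq2, limma-voom and a limit of 0.1. The title prefix as a covariate is not counted among these fits, since its genotype difference rests on the MS13 mice alone. Leaving out 1 mouse gave 0 to 1 (Ulk1, without the MS13 control). At an unadjusted p under 0.05 the count of 2 became 1 with DESeq2 (Ctsb) and 1 with the robust fit (Gabarapl2). With no filter on low counts the 2 genes were Atg14 and Gabarapl2. With library size only there were 3, namely Ctsb, Ctsl and Gabarapl2. The count became 0 to 8 without 1 mouse, the 8 without the MS13 control. Over all genes the count of 3 became 23 with DESeq2, 5 with limma-voom, 17 with no filter on low counts, 16 with the prefix, 8 at a limit of 0.1 and 0 to 955 without 1 mouse. The 955 came without the MS13 control. The count was 0 without the second control or without the second Baf155 ΔMF mouse, in the order of the text, where 451 and 568 genes had an unadjusted p under 0.05 in edgeR. Scaling by library size only moved the median log2 fold change of the 37 genes from -0.03 to -0.10 (all genes -0.06) and the difference of their mean log2 CPM from 0.00499 to -0.056, which was not computed for DESeq2, limma-voom, the robust fit and the prefix. Over the other lists, hydrolases lower at an unadjusted p under 0.05 numbered 0 to 10 when 1 mouse was left out and macrophage markers 1 to 12, and Ctsz, Ctss, Man2b1, Npc2 and Npc1 passed after adjustment without the MS13 control. All counts of the 37 genes lay above the floor of 3 counts, and the lowest was 68, for Tfe3. Whether depth limited the precision of the least counted genes was not tested.

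Of 540 values of single genes under other fits or without 1 mouse, 505 kept their sign, 35 changed it and 1 passed the limit. Between the MS13 mice alone, which carry no test, 12 of 36 genes changed sign. With the prefix as a covariate the log2 fold change was -0.13 for Ulk1, -0.020 for Atg13, 0.00325 for Becn1, -0.18 for Atg9a, -0.051 for Wipi1, -0.037 for Atg5, -0.11 for Atg7, 0.040 for Atg12, 0.032 for Map1lc3b, 0.00722 for Gabarap, -0.096 for Bnip3l, 0.012 for Fundc1 and 0.13 for Tfeb. In the other lists it was -0.020 for Pik3r4, -0.026 for Bcl2l13, 0.035 for Tex264, -0.063 for Epg5, -0.23 for Plekhm1, -0.14 for Vps18, -0.026 for Mtor and 0.095 for Lamtor5. With library size only it was -0.021 for Pik3c3, -0.017 for Atg9a, -0.00689 for Atg5, -0.00622 for Atg16l1, -0.063 for Bnip3 and -0.012 for Bnip3l. Bnip3 was at -0.014 with upper-quartile scaling, -0.00477 with limma-voom and -0.00137 with at least 10 counts in every mouse. Without 1 mouse, signs changed within the ranges -0.11 to 0.034 for Becn1, -0.00269 to 0.10 for Pik3c3, -0.14 to 0.078 for Atg2a, -0.036 to 0.14 for Atg9a, -0.062 to 0.23 for Atg3, -0.10 to 0.00722 for Sqstm1, -0.084 to 0.081 for Bnip3, -0.00723 to 0.13 for Bnip3l and -0.047 to 0.23 for Tfe3. Between the MS13 mice alone the log2 difference of ratios was -0.17 for Gabarapl1 to Gabarap, -0.25 for Ulk1 to Ulk2, 0.15 for Bnip3 to Bnip3l, 0.017 for Lamp2 to Lamp1 and 0.12 for Ctsl to Ctsd. Without 1 mouse it ran from -0.094 to 0.13 for Gabarapl1 to Gabarap, -0.044 to 0.28 for Ulk1 to Ulk2, -0.12 to 0.014 for Bnip3 to Bnip3l, -0.34 to 0.015 for Tfeb to Tfe3 and -0.039 to 0.037 for Lamp2 to Lamp1. The cause of these changes was not tested. No paired analysis was possible, since no label pairs a mouse of one genotype with a mouse of the other.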
